A study of Arabidopsis thaliana with 9 samples.

Results

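The serine carboxypeptidase-like (SCPL) genes form a large plant gene family. They were followed in whole seedlings of Arabidopsis thaliana through every array probe set whose annotated gene symbol is SCPL followed by a number. A probe set is the group of short probes on an Affymetrix ATH1 array that together measure 1 transcript. The rule found 31 of the 22810 probe sets. Of these, 29 name 1 gene each, 1 is shared by SCPL36 and SCPL37, and 1 is shared by SCPL39 and AT3G56540, so that 32 of the 49 genes with such a symbol in the TAIR10.1 gene table are represented, among 14327 genes named by the array annotation. Symbols are written here in capitals throughout.

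The seedlings were of 3 genotypes: vtc1-1, vtc2-1 and the wild type Col-0. The vtc1-1 allele lies in the gene for GDP-mannose pyrophosphorylase and the vtc2-1 allele in that for GDP-L-galactose phosphorylase, and both mutants are known for low ascorbate (vitamin C). The labels give vtc2-1 as an EMS-induced mutation in the Col-0 background, and name only a stock code for vtc1-1. Each mutant is a single line, so the named mutation and any other change carried by that line cannot be told apart. No treatment was applied. All seedlings grew on agar for 14 days to stage 1.04, and each genotype had 3 arrays, 9 in all. The labels do not say whether the samples of a genotype were grown apart, and the p-values cover only the spread among these arrays, which may be technical. The number of arrays limits the precision.

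As background, serine carboxypeptidases cut single amino acids from the carboxyl end of proteins with a catalytic triad of serine, aspartate and histidine, and most are glycoproteins of the vacuole or the cell wall. Plants have many genes of this type. Some of their products no longer act as peptidases and instead transfer acyl groups from glucose esters, among them SNG1 and SCPL19 (also called SNG2), which make the sunscreen and seed esters sinapoylmalate and sinapoylcholine. Another, BRS1, is known from its effect on brassinosteroid signalling. SNG1, SCPL9, SCPL10, SCPL19 and BRS1 were not analysed here. Of the 18 genes numbered SCPL1 to SCPL19 in the gene table only SCPL16 and SCPL18 had a probe set in the annotation used.

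The arrays did not all group by genotype. Over the 14603 tested probe sets, log2 signals of Col-0 replicate 3 correlated at r = 0.874 and 0.889 with the other Col-0 arrays and at 0.916 to 0.931 with the 6 mutant arrays. Probe sets are no replicates, and these correlations only describe the arrays. Correlations within vtc1-1 were 0.932 to 0.945, and within vtc2-1 they were 0.918 to 0.944. Replicate 3 of vtc2-1 correlated at 0.918 and 0.920 with its own group and at 0.888 to 0.937 with arrays of the other genotypes. Because of the Col-0 correlations, differences from Col-0 are also given without Col-0 replicate 3. That array was picked because it was nearer to the mutant arrays than to its own group, so leaving it out tends to widen these differences. A value that passes only then is no separate support, and which of the Col-0 arrays are the odd ones was not tested. Seedling RNA is a mixture, so that fewer cells of a type and less RNA per cell cannot be told apart. Of 10 shoot and 10 root markers, RCA and PYK10 were the only ones with a probe set in the annotation used. RCA, the activase of Rubisco, had signals of 6295 to 7084 in vtc1-1, 6752 to 7731 in vtc2-1, and 8376, 8084 and 5751 in Col-0 replicates 1, 2 and 3. PYK10, a beta-glucosidase abundant in roots, had signals of 1726 to 2318 in vtc1-1, 2086 to 4406 in vtc2-1 and 2465 to 3001 in Col-0. Both markers were bright on every array, Col-0 replicate 3 had the lowest RCA signal, and their part in the results below was not tested.

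Many of the family's probe sets were too dim to be compared. A probe set was tested if its signal, the linear MAS5 value deposited by the authors, exceeded the array's 40th percentile (28.3 to 30.4) on at least 3 of the 9 arrays. This held for 15 of the 31 family members (48.4%), against 14603 of all 22810 probe sets (64%). The tested members were SCPL20, SCPL25, SCPL26, SCPL27, SCPL29, SCPL31, SCPL34, SCPL35, SCPL42, SCPL43, SCPL45, SCPL46, SCPL48, SCPL49 and SCPL50, and 12 of them exceeded that level on all 9 arrays. The other 3 were nearer to background: SCPL31 exceeded it on 3 arrays, SCPL43 on 5 and SCPL50 on 7. Both members numbered under 20, SCPL16 and SCPL18, stayed below it on every array.

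Among the 16 members that were not tested, 12 lay below the 40th percentile on all 9 arrays, and SCPL30, SCPL33, SCPL44 and SCPL47 exceeded it on 1 or 2. Their signals ran from 0.45 to 38.9. SCPL44, the brightest of them on any array, had 23.2, 25.8 and 28.6 in vtc1-1, 26.5, 24.0 and 35.5 in vtc2-1, and 38.9, 25.8 and 26.8 in Col-0. The 3 groups overlapped. SCPL22 had 0.84, 26.9 and 17.5 in vtc1-1, 14.2, 14.7 and 17.7 in vtc2-1, and 11.8, 1.78 and 1.36 in Col-0. There vtc1-1 overlapped with Col-0 and vtc2-1 lay above it, with every signal below the 40th percentile. When all probe sets were fitted without the filter, none of these 16 had an unadjusted limma p under 0.05 in any of the 4 comparisons, where 4.05% to 5.93% of all probe sets did. The shared probe sets were both among the dim ones, so neither bears on SCPL36, SCPL37 or SCPL39. Neighbouring genes could differ in this respect. SCPL26 was tested and SCPL28, which lies next to it in the gene table, was below the 40th percentile on all arrays, and SCPL22 and SCPL23, also adjacent, both were.

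**Figure D1:**
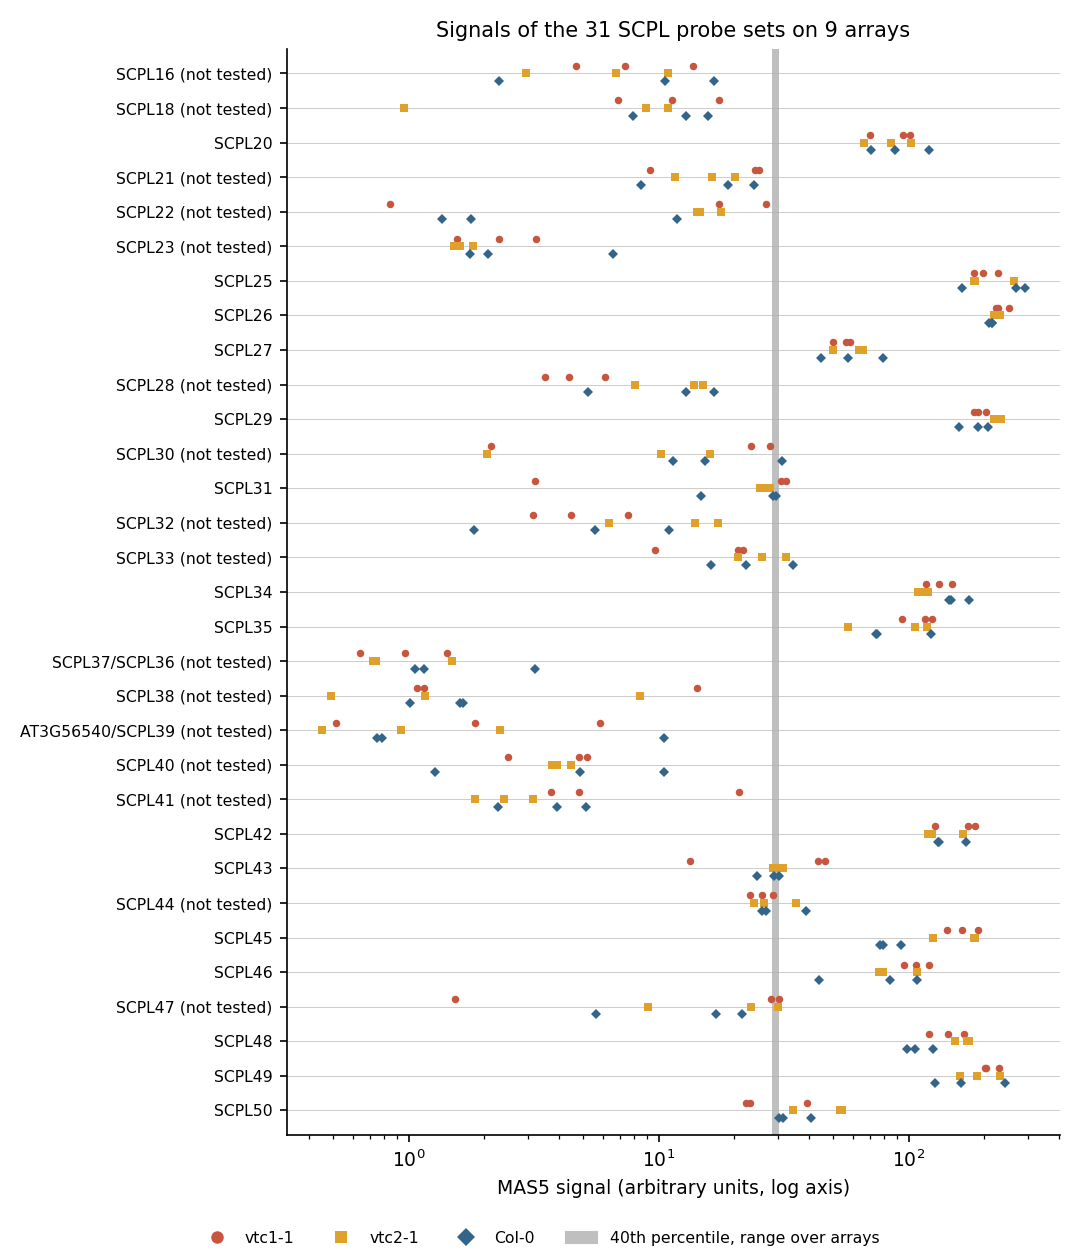
Signals of all 31 SCPL probe sets (rows) on a log axis in MAS5 units, 1 point per array, with vtc1-1 above vtc2-1 above Col-0 in each row. The grey band spans the arrays' 40th percentiles (28.3 to 30.4). SCPL45 is a row in which every mutant point lies right of every Col-0 point, and the 16 rows marked as not tested lie mostly left of the band.

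SCPL45 (AT1G28110), a member known here only by its family name, had the largest difference from Col-0 of the 15 tested members in both mutants. Its signals were 189.6, 164 and 142 in vtc1-1, 185, 183 and 125 in vtc2-1, and 79.0, 76.7 and 93.5 in Col-0. All 6 mutant arrays lay above all 3 Col-0 arrays, and the lowest mutant signal was 1.33 times the highest Col-0 signal. The highest Col-0 value was that of replicate 3. Signals averaged 165 ± 23.7 in vtc1-1, 164 ± 34.3 in vtc2-1 and 83.1 ± 9.08 in Col-0 (SD, n = 3 arrays each).

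The fitted log2 difference of SCPL45 was 0.99 ± 0.20 in vtc1-1 against Col-0 (SE), a 1.98-fold higher level (limma adjusted p = 0.616). In vtc2-1 against Col-0 it was 0.97 ± 0.20, or 1.95-fold (limma adjusted p = 0.597). Both comparisons use the same Col-0 arrays, so they are not independent of each other. With the mutants averaged in the same model, the difference from Col-0 was 0.98 ± 0.17 (limma adjusted p = 0.389). Ordered by p-value, this placed SCPL45 at rank 5 in vtc1-1, rank 6 in vtc2-1 and rank 2 for both mutants, out of 14603 probe sets. The members were chosen with earlier results of these data known, so these ranks are no separate support. No value passed the threshold, an adjusted p under 0.05 by limma with Benjamini-Hochberg adjustment over all tested probe sets.

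Without Col-0 replicate 3 the SCPL45 difference was 1.08 ± 0.21 in vtc1-1 (limma adjusted p = 0.0531) and 1.05 ± 0.21 in vtc2-1, where it passed (adjusted p = 0.0423). For both mutants against the remaining Col-0 arrays it was 1.07 ± 0.19 and passed as well (adjusted p = 0.0218). These passes hinged on that 1 array. With Col-0 replicate 1 left out instead, the limma adjusted p was 0.923 in vtc2-1 and 0.978 for both mutants. With Col-0 replicate 2 left out it was 0.997 in vtc2-1 and 0.993 for both mutants. The difference lay between 0.88 and 1.09 in vtc1-1 and between 0.87 and 1.15 in vtc2-1 whichever of the 9 arrays was left out. Between the mutants the difference was -0.02 ± 0.20 in vtc2-1 against vtc1-1, with a 95% interval of -0.45 to 0.41. No difference between the mutants was found at this precision, and the interval allows one in either direction.

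**Figure D2:**
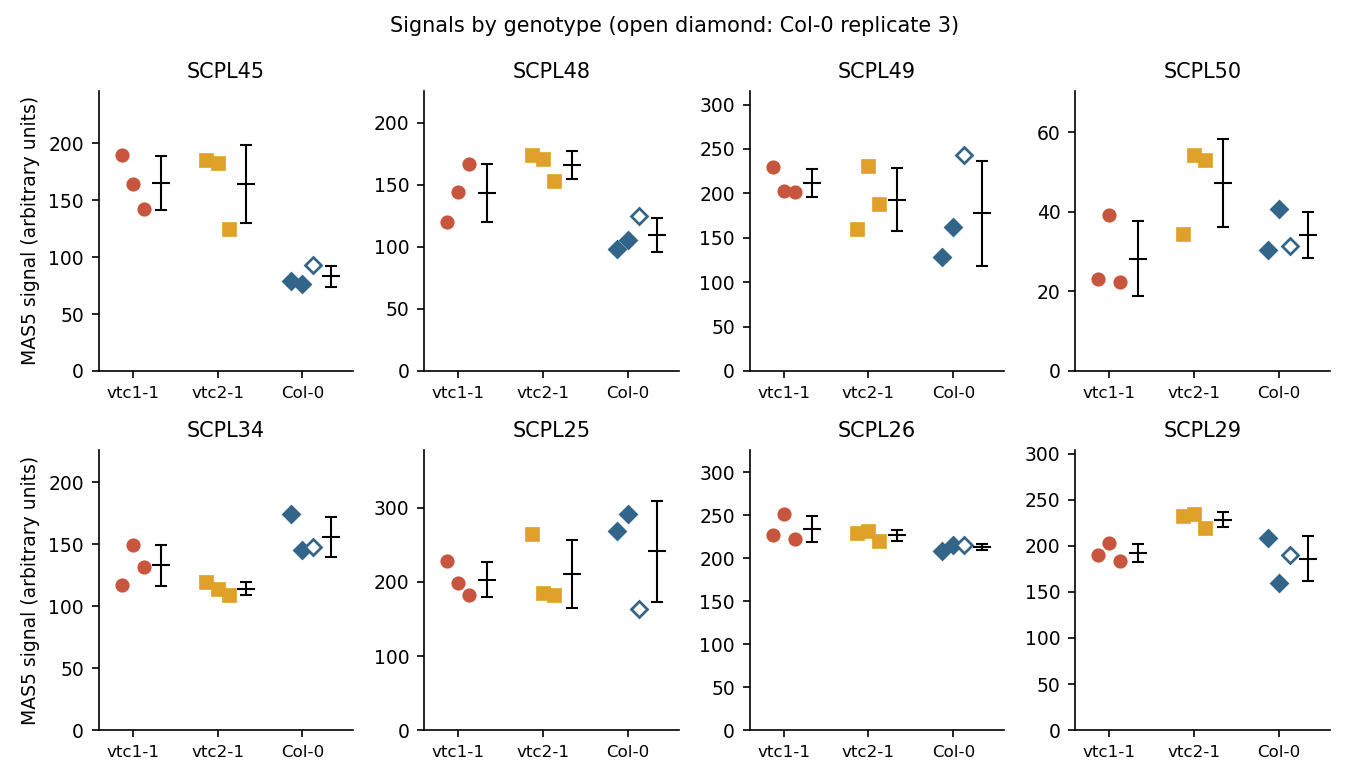
MAS5 signals (linear axis from 0) of the 8 SCPL probe sets that met the rule for giving all signals, with 1 point per array. Replicates 1 to 3 run from left to right, with the mean ± SD of each genotype beside them (n = 3). The open diamond is Col-0 replicate 3. It is the highest of the 9 arrays for SCPL49 and the lowest for SCPL25, and for SCPL45 it lies below all 6 mutant arrays.

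SCPL48 and SCPL49 have neighbouring family numbers, and the gene table also names SCPL49 carboxypeptidase Y, after the vacuolar enzyme of yeast. SCPL48 (AT3G45010) had signals of 120.1, 144 and 167 in vtc1-1, 174, 171 and 153 in vtc2-1, and 98.4, 106 and 125 in Col-0. The vtc2-1 arrays lay above all Col-0 arrays, whereas the lowest vtc1-1 array fell just under Col-0 replicate 3. The log2 difference from Col-0 was 0.38 ± 0.18 in vtc1-1 (limma adjusted p = 0.998) and 0.60 ± 0.18 in vtc2-1 (adjusted p = 0.685). For both mutants it was 0.49 ± 0.15 (limma adjusted p = 0.76). Without Col-0 replicate 3 the values were 0.48 ± 0.19 in vtc1-1 and 0.70 ± 0.19 in vtc2-1, and they did not pass (limma adjusted p = 0.314 and 0.098).

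SCPL49 (AT3G10410) had signals of 230.1, 203 and 202 in vtc1-1, 159.8, 231 and 188 in vtc2-1, and 128, 162 and 243 in Col-0. Col-0 replicate 3 was the highest of all 9 arrays, and both other Col-0 arrays lay below every vtc1-1 array. The log2 difference from Col-0 was 0.30 ± 0.23 in vtc1-1 (limma adjusted p = 0.998) and 0.15 ± 0.23 in vtc2-1 (adjusted p = 0.919). Without Col-0 replicate 3 it was 0.56 ± 0.19 in vtc1-1 and 0.41 ± 0.19 in vtc2-1, still short of the threshold (limma adjusted p = 0.244 and 0.338). Without Col-0 replicate 1, the lowest of the 9 arrays, it was 0.09 in vtc1-1 and -0.06 in vtc2-1. The SCPL49 values thus moved in opposite directions with Col-0 replicates 1 and 3.

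SCPL34 and SCPL25 stood on the lower side. SCPL34 (AT5G23210) had signals of 117, 149.7 and 132 in vtc1-1, 119.8, 114 and 109 in vtc2-1, and 174, 145 and 148 in Col-0. All 3 vtc2-1 arrays lay below all Col-0 arrays, and the vtc1-1 arrays overlapped with Col-0. The log2 difference was -0.23 ± 0.16 in vtc1-1 and -0.44 ± 0.16 in vtc2-1, where the limma adjusted p was 0.726. Col-0 replicate 3 was not apart for this gene, and without it the values were -0.26 in vtc1-1 and -0.48 ± 0.18 in vtc2-1, where the limma adjusted p was 0.23.

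SCPL25 (AT3G02110) had signals of 228, 199 and 182 in vtc1-1, 264, 185 and 183 in vtc2-1, and 269, 291 and 164 in Col-0. Col-0 replicate 3 was the lowest of the 9 arrays, and both other Col-0 arrays were above all 6 mutant arrays. With all arrays the log2 difference was -0.21 ± 0.23 in vtc1-1 (limma adjusted p = 0.998) and -0.17 ± 0.23 in vtc2-1 (adjusted p = 0.907). Without Col-0 replicate 3 it was -0.47 ± 0.19 in vtc1-1 and -0.43 ± 0.19 in vtc2-1, which did not pass (limma adjusted p = 0.342 and 0.304). Leaving out another Col-0 array brought it nearer 0. It was -0.11 in vtc1-1 and -0.07 in vtc2-1 without replicate 1, and -0.05 in vtc1-1 and -0.01 in vtc2-1 without replicate 2. SCPL25 and SCPL49 were the tested members in which Col-0 replicate 3 stood furthest from the mean of the other Col-0 arrays, by -0.77 and 0.76 on the log2 scale. The median size of that gap was 0.29 over the 15 tested members and 0.34 over all tested probe sets.

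**Figure D3:**
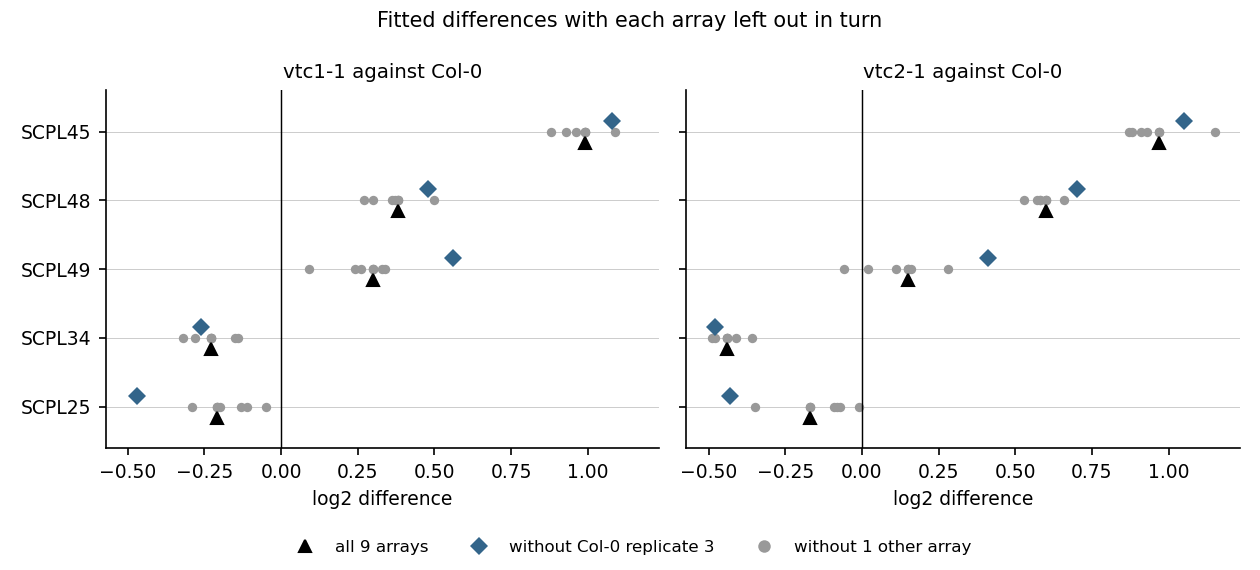
Fitted log2 differences from Col-0 for 5 SCPL genes, with vtc1-1 on the left and vtc2-1 on the right. Black triangles use all 9 arrays, blue diamonds leave out Col-0 replicate 3 and grey points leave out 1 other array. SCPL45 stays between 0.87 and 1.15 in both panels, and SCPL25 reaches from -0.47 to -0.05 in vtc1-1 and from -0.43 to -0.01 in vtc2-1.

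SCPL26 and SCPL29 showed small differences with little spread. SCPL26 (AT2G35780) had signals of 227, 251 and 223 in vtc1-1, 229, 232 and 219.7 in vtc2-1, and 209, 215 and 216 in Col-0. The mutant arrays lay above the Col-0 arrays without overlap, yet the log2 difference was 0.13 ± 0.14 in vtc1-1 (limma adjusted p = 0.998) and 0.09 ± 0.14 in vtc2-1 (adjusted p = 0.925). It was 0.14 in vtc1-1 and 0.10 in vtc2-1 without Col-0 replicate 3. Its spread within genotypes was 0.06 on the log2 scale, the smallest of the tested members, whose median was 0.32 (0.29 over all tested probe sets).

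SCPL29 (AT4G30810) had signals of 190.1, 203 and 183 in vtc1-1, 232, 234 and 219 in vtc2-1, and 208, 159.6 and 189.7 in Col-0. The vtc2-1 arrays lay above every array of both other genotypes. The log2 difference of vtc2-1 was 0.31 ± 0.15 from Col-0 and 0.25 ± 0.15 from vtc1-1, and neither passed (limma adjusted p = 0.804 and 0.998). In vtc1-1 against Col-0 it was 0.05 ± 0.15. The differences from Col-0 were 0.07 in vtc1-1 and 0.32 in vtc2-1 without Col-0 replicate 3.

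SCPL50 (AT1G15000) was the member with the smallest p between the mutants. Its signals were 34.4, 54.2 and 53.1 in vtc2-1, and 23.1, 39.1 and 22.4 in vtc1-1. In Col-0 they were 30.4, 40.7 and 31.4. The mutant groups overlapped, since vtc1-1 replicate 2 lay above vtc2-1 replicate 1, and 2 of the 3 vtc1-1 signals did not reach the 40th percentile. The log2 difference of vtc2-1 against vtc1-1 was 0.76 ± 0.34 (limma adjusted p = 0.998), with values of 0.45 ± 0.34 in vtc2-1 and -0.31 ± 0.34 in vtc1-1 against Col-0. The values against Col-0 were 0.40 in vtc2-1 and -0.37 in vtc1-1 without Col-0 replicate 3. PYK10, the root marker, had a difference of the same sign, 0.75 ± 0.25 in vtc2-1 against vtc1-1 (limma adjusted p = 0.998), and its part in the SCPL50 value was not tested.

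The remaining 7 tested members, SCPL20, SCPL27, SCPL31, SCPL35, SCPL42, SCPL43 and SCPL46, overlapped between each mutant and Col-0. Their log2 differences ran from -0.66 for SCPL31 to 0.54 for SCPL46 in vtc1-1, and from -0.13 for SCPL20 to 0.24 for SCPL46 in vtc2-1. With Col-0 replicate 3 left out they ran from -0.51 for SCPL31 to 0.64 for SCPL46 in vtc1-1, and from -0.31 for SCPL20 to 0.34 for SCPL31 in vtc2-1, and SCPL35 in vtc1-1 was 0.58 in place of 0.33. Most of these signs turned when 1 of the 9 arrays was left out in turn. The members that kept theirs were SCPL35, SCPL42 and SCPL46 in vtc1-1 and SCPL43 in vtc2-1. SCPL46 then lay between 0.17 and 0.82 in vtc1-1 and between -0.14 and 0.51 in vtc2-1. SCPL46 had the smallest p among them in both mutants. Its signals were 107, 121 and 95.8 in vtc1-1, 78.8, 76.2 and 108 in vtc2-1, and 43.8, 108 and 84.0 in Col-0. The lowest of the 9 signals was that of Col-0 replicate 1. SCPL31 scattered most, with a spread of 1.15 on the log2 scale within genotypes and signals of 3.19, 32.2 and 31.0 in vtc1-1, 25.5, 25.9 and 27.9 in vtc2-1, and 14.8, 29.5 and 28.7 in Col-0. One vtc1-1 array, at 3.19, lay far below the other 8, and only 3 of the 9 signals exceeded the 40th percentile. With 1 array left out, the SCPL31 difference lay anywhere between -1.22 and 0.45 in vtc1-1 against Col-0. Between the mutants it was 0.84 ± 0.81 in vtc2-1 against vtc1-1, and -0.26 to 1.41 with 1 array left out.

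**Figure D4:**
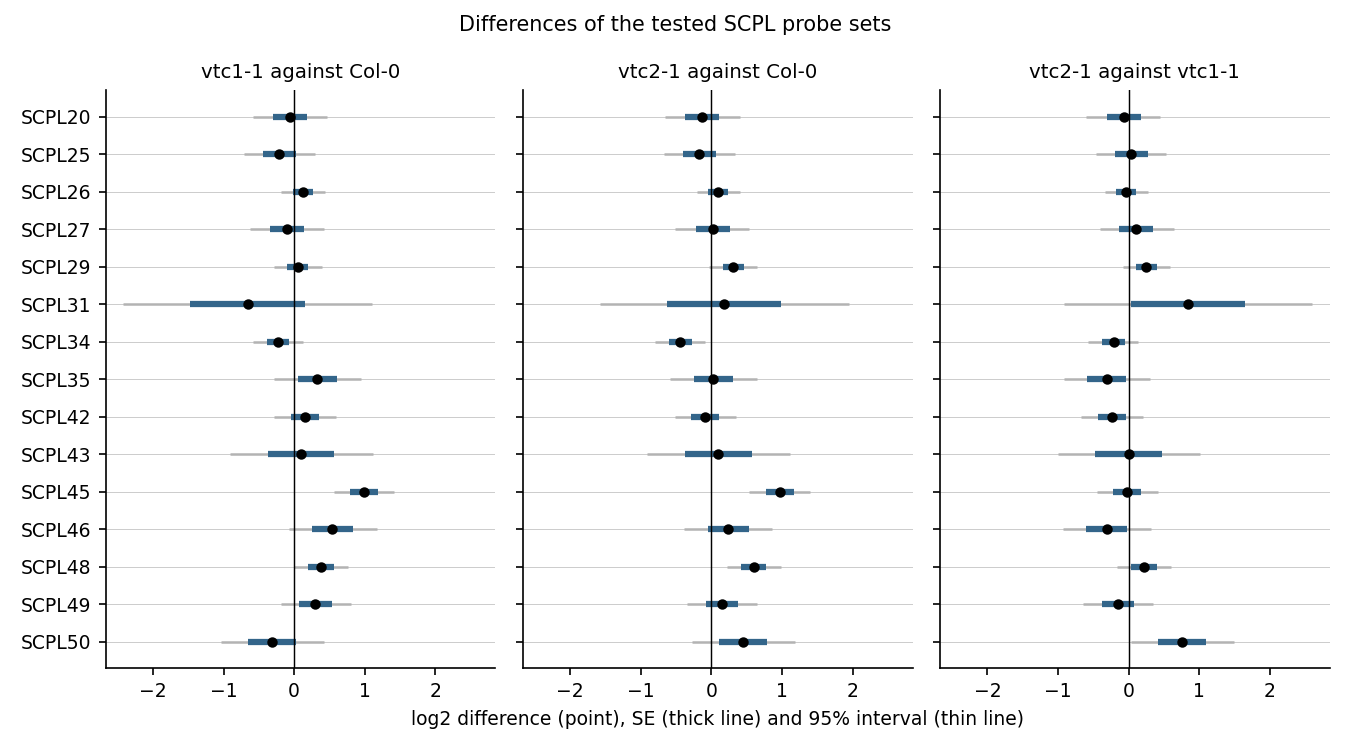
Log2 differences of the 15 tested SCPL probe sets (points), with the SE as a thick line and the 95% interval as a thin line, from the limma model of all 9 arrays. SCPL45 lies near 1 in both mutants against Col-0 and near 0 between the mutants, and the widest intervals are those of SCPL31.

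For the family as a whole, no tested member passed the threshold with all arrays. In vtc1-1 against Col-0 limma called 0 of 15 members at an adjusted p under 0.05, as it called 0 of all 14603 probe sets (0%). At an unadjusted p under 0.05, SCPL45 was the only member, on the higher side, where 4.13% of all tested probe sets passed, 2.26% higher and 1.87% lower. SCPL26 and SCPL45 were higher in vtc1-1 without overlap (4.36% of all tested), and no member was lower without overlap (3.58%).

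In vtc2-1 against Col-0 limma called 0 of 15 members and 1 of all probe sets (0.00685%). At an unadjusted p under 0.05, 3 members passed (6.28% of all tested): SCPL45 and SCPL48 were higher (3.66%) and SCPL34 was lower (2.62%). Without overlap, SCPL26, SCPL29, SCPL45 and SCPL48 were higher (6.27%) and SCPL34 was lower (4.52%). For both mutants against Col-0 limma again called 0 of 15 members and 0 of all probe sets (0%). At an unadjusted p under 0.05, 3 members passed (5.89%), with SCPL45 and SCPL48 higher (3.69%) and SCPL34 lower (2.2%). SCPL26 and SCPL45 were higher without overlap (1.5%), and no member was lower without overlap (0.952%). Between the mutants limma called 0 of 15 members, against 0.00685% of all tested. SCPL50 was the only member at an unadjusted p under 0.05 (3.61%), higher in vtc2-1 (2.03%), and none was lower (1.58%). SCPL29 was higher in vtc2-1 without overlap (5.69%), and none was lower without overlap (4.56%). With 15 members these counts are small, and no test of the family against other genes was made.

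Without Col-0 replicate 3 the counts grew for all probe sets as well as for the family. In vtc1-1, 4 of 15 members had an unadjusted p under 0.05, where 12.6% of all tested probe sets did. SCPL45, SCPL48 and SCPL49 were higher (7.07% of all) and SCPL25 was lower (5.57%). In vtc2-1, 4 of 15 did, where 15.4% of all did, with SCPL45 and SCPL48 higher (8.83%) and SCPL25 and SCPL34 lower (6.61%). For both mutants it was 5 of 15, where 16% of all did, with SCPL45, SCPL48 and SCPL49 higher (9.14%) and SCPL25 and SCPL34 lower (6.88%). Between the mutants it was again SCPL50 alone (5.21%), higher in vtc2-1 (2.89%), and none was lower (2.32%). SCPL45 was the only member called at an adjusted p under 0.05, in vtc2-1 (0.548% of all tested were called higher) and for both mutants (0.842%). In vtc1-1 no member was called, where 0.322% of all tested were.

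The members did not all differ from Col-0 in the same direction, and whether they shifted as a set was not tested. Values lay above 0 in 9 of 15 members in vtc1-1 and in 11 of 15 in vtc2-1 against Col-0, and the median log2 difference was 0.10 in each, against 0.01 over all tested probe sets. Both comparisons share the Col-0 arrays. With Col-0 replicate 3 left out the median was 0.09 in vtc1-1 (-0.02 over all tested) and 0.27 in vtc2-1 (-0.01 over all tested). The median size of the difference regardless of sign was 0.23 for the members and 0.16 for all tested probe sets in vtc1-1, and 0.17 against 0.19 in vtc2-1. On the arrays without Col-0 replicate 3 it was 0.37 against 0.23 in vtc1-1 and 0.33 against 0.25 in vtc2-1, so that the order in vtc2-1 depended on that array. The intervals say how large a difference could have been. Each is for a single probe set and is not adjusted for the number tested, unlike the adjusted p-values. The 95% interval lay within a 2-fold change in either direction for 10 of 15 members in vtc1-1 and for 11 of 15 in vtc2-1. The exceptions were SCPL31, SCPL43, SCPL45 and SCPL50 in both mutants, and SCPL46 in vtc1-1. Of these, SCPL45 alone had intervals that left out 0, at 0.56 to 1.42 in vtc1-1 and 0.54 to 1.40 in vtc2-1. Those of SCPL34 and SCPL48 in vtc2-1 also left out 0 (-0.80 to -0.09 and 0.22 to 0.98).

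Other proteases of the vacuole and cell wall and the sinapate ester pathway were set beside the family from written lists. SNG1 and SCPL19, the acyltransferases of that pathway named above, were not among the members analysed here. Of 17 proteases, 8 had a probe set and 6 were tested, and limma called 0 in either direction in each comparison. beta-VPE, a vacuolar processing enzyme, had signals of 55.5, 42.5 and 36.6 in vtc1-1, 59.8, 45.4 and 62.8 in vtc2-1, and 34.6, 27.3 and 33.1 in Col-0. Both mutants lay above Col-0 without overlap, as 4.36% of all tested probe sets did in vtc1-1 and 6.27% in vtc2-1. The Col-0 signals of beta-VPE were close to the arrays' 40th percentile (28.3 to 30.4). The log2 differences were 0.49 ± 0.27 in vtc1-1 (limma adjusted p = 0.998) and 0.82 ± 0.27 in vtc2-1 (adjusted p = 0.707). gamma-VPE, another such enzyme, had signals of 2269 to 2838 in vtc1-1, 1644 to 2158 in vtc2-1 and 1612 to 2054 in Col-0. It lay above Col-0 without overlap in vtc1-1, as did ARA12 of the same list, and overlapped with Col-0 in vtc2-1. The gamma-VPE differences were 0.46 ± 0.16 in vtc1-1 (limma adjusted p = 0.998) and 0.05 ± 0.16 in vtc2-1 (adjusted p = 0.962). At an unadjusted limma p under 0.05, 1 of the 6 proteases passed in vtc1-1 (gamma-VPE, 4.13% of all tested) and 1 in vtc2-1 (beta-VPE, 6.28%). When Col-0 replicate 3 was left out, beta-VPE differed by 0.52 in vtc1-1 and 0.85 in vtc2-1, and gamma-VPE by 0.54 in vtc1-1 and 0.13 in vtc2-1. The other tested proteases differed by 0.07 to 0.36 in vtc1-1 and by -0.00 to 0.19 in vtc2-1. Without Col-0 replicate 3 they differed by 0.09 to 0.40 in vtc1-1 and by -0.11 to 0.24 in vtc2-1. The list's median difference was 0.34 in vtc1-1 and 0.08 in vtc2-1, against 0.01 over all tested probe sets in each.

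Of 19 genes of the sinapate ester pathway, 4 had a probe set and 3 were tested, and limma called 0 in either direction in each comparison. HCT, an acyltransferase of the shared phenylpropanoid route, differed by -0.19 ± 0.15 in vtc1-1 and -0.15 ± 0.15 in vtc2-1. UGT84A3, a glucosyltransferase that makes glucose esters of hydroxycinnamic acids, differed by -0.30 ± 0.28 in vtc1-1 and -0.09 ± 0.28 in vtc2-1. On the arrays without Col-0 replicate 3, HCT differed by -0.15 in vtc1-1 and -0.11 in vtc2-1, and UGT84A3 by -0.37 in vtc1-1 and -0.16 in vtc2-1. ALDH2C4, also called REF1, an aldehyde dehydrogenase that forms sinapate and ferulate, differed by 0.02 ± 0.28 in vtc1-1 and 0.08 ± 0.28 in vtc2-1. Its signals were 361 to 501 in vtc1-1, 376 to 545 in vtc2-1, and 334, 307 and 701 in Col-0 replicates 1, 2 and 3, so that without replicate 3 the differences were 0.40 and 0.46 (limma adjusted p = 0.409 and 0.266). Of 13 genes of brassinosteroid perception and synthesis only BRL1 had a probe set, and it was too dim to be tested.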

How the data were processed

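Total RNA was hybridised to 1-colour arrays, and the authors deposited linear signal intensities per probe set, made with MAS5 and GCOS per the submitters' processing notes, versions not given in the sources used here. Array medians were 43.0 to 45.2 and trimmed means equal, so the values were used as scaled; a change in total RNA per seedling would not show.

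Signals were log2 transformed with no pseudocount. Probe sets above their array's 40th percentile on at least 3 arrays, without the 64 controls, entered 1 model of group means over 9 arrays (R 4.3.3, limma 3.58.1, eBayes with an intensity trend) for 4 comparisons, with Benjamini-Hochberg adjustment over 14603 probe sets and a threshold of 0.05. Values after ± are SEs for log2 differences and SDs for signals; intervals are at 95%. The fit was also run on simulated arrays with known changes, independent noise and no outlying array. That run does not bear on how Col-0 replicate 3 affects the calls. Figures used matplotlib 3.10.9.

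Names came from the platform annotation, updated through the TAIR10.1 gene table; 13513 probe sets have 1 symbol, 503 several and 8794 are unlisted. No coordinates are given, since no build is named. Members and lists were chosen with earlier results of these data known. All signals are given for SCPL45 and for tested members with an unadjusted p under 0.05 in any comparison, with or without Col-0 replicate 3, or with no overlap with Col-0. SCPL22, SCPL31, SCPL44 and SCPL46 were added after their values were seen. Up to 4 genes per list were named, smallest p first. The replicate numbers were not used to pair the samples in the main model. Deviations from the group means correlated above 0.1 in 2 of 9 same-numbered pairs (-0.07 to 0.20), which does not settle whether the numbers pair them. Alternatives covered the filter, scaling, pseudocount, variance model, weights, samples, a replicate block and each array left out.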

Additional observations from a re-analysis of the deposited data

How the results depend on the processing

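SCPL45 kept its direction against Col-0 under every alternative run, with log2 differences of 0.87 to 1.09 in vtc1-1, 0.85 to 1.15 in vtc2-1 and 0.86 to 1.09 for both mutants. Its limma adjusted p was 0.0531 to 1, 0.0423 to 0.997 and 0.0218 to 0.993 in the same order, and it passed only without Col-0 replicate 3, in vtc2-1 (1.05) and for both mutants (1.07). With the replicate number as a block the values were 0.99, 0.97 and 0.98, and the block changed no call. Whether the numbers pair the samples is not settled. In 10 of 18 cases an array's deviations correlated best with its own number in another group. Leaving out 1 array moved the calls over all probe sets between 0 and 47 in vtc1-1, 0 and 122 in vtc2-1 and 0 and 174 for both mutants, each highest without Col-0 replicate 3. SCPL calls stood at 0 or 1 in vtc2-1 and for both mutants. SCPL members at an unadjusted p under 0.05 numbered 1 to 4 in vtc1-1, 0 to 1 between the mutants and 2 to 5 for both mutants. In vtc1-1 this count, 1 as reported, was 2 with no filter, with the filter at the 60th percentile or with median-centring, and 3 with array quality weights. Between the mutants it was 0 with no filter, the 60th percentile, quantile normalization or median-centring. Without an intensity trend limma called 2 probe sets between the mutants and 0 in vtc2-1, and with only the groups compared it called 0 in vtc2-1. The alternatives were followed for differences from Col-0 of the 8 members that met the rule for giving all signals, and between the mutants for SCPL45 and SCPL50. Of these members, 4 had a difference that turned sign. That of SCPL31, outside these 8, turned over a wider range in vtc1-1 (-1.22 to 0.45 with 1 array left out). SCPL45 between the mutants was 0.00 with array quality weights, 0.08 without vtc1-1 replicate 1 and 0.17 without vtc2-1 replicate 3, and leaving out 1 array gave -0.13 to 0.17. SCPL50 for both mutants, 0.07 with all arrays, was -0.04 with array quality weights, -0.01 without Col-0 replicate 1 and -0.06 without vtc1-1 replicate 2 (-0.06 to 0.20). Its differences in each mutant against Col-0 and between the mutants kept their sign. SCPL29 in vtc1-1 was -0.05 without Col-0 replicate 2 (-0.05 to 0.14), and SCPL49 in vtc2-1 was -0.06 without Col-0 replicate 1 (-0.06 to 0.41). The cause of these moves was not tested. SCPL50 was not among the probe sets left by the 60th percentile filter. Signal close to background limits SCPL31, SCPL43 and SCPL50 and leaves 16 members uncompared.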
